A study of Danio rerio with 8 samples.

Results

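The genes described here encode the nuclear part of respiratory complex I, the NADH:ubiquinone oxidoreductase of the inner mitochondrial membrane. They were taken as every gene whose symbol, in either case, begins with nduf, and 49 of 31388 identifiers met this rule. Of these, 38 name subunits, 7 name assembly factors (symbols beginning with ndufaf) and 4 are NDUFA4-type genes. The NDUFA4 protein was first purified with complex I and is now counted as part of complex IV, so these 4 genes are kept apart. A level of at least 1 TPM in at least 4 libraries, the condition for a test, was met by 37 subunits, 6 assembly factors and all 4 NDUFA4-type genes, 47 in all. The untested ones were ndufa9b, which RefSeq annotates as a pseudogene and which was listed above 0 in 1 library alone, at 0.29 TPM, and the assembly factor NDUFAF8.

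Complex I takes electrons from NADH, passes them along a chain of iron-sulfur clusters in its matrix arm to ubiquinone, and pumps protons through its membrane arm. A core set of subunits, conserved from bacteria, does the catalysis: the hydrophobic members are encoded in mitochondrial DNA and the others in the nucleus. The accessory subunits surround this core, and assembly factors help to build the complex without staying in it. Heart muscle cells are rich in mitochondria and draw on the complex heavily. The roles given below are those known from mammals.

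The cells came from ventricles of adult zebrafish, 3 to 9 months old, carrying Tg(-6.8wt1a:EGFP), a transgene in which a fragment upstream of wt1a drives green fluorescent protein (GFP). No treatment was given. Each of 4 pools of 3 to 5 hearts gave a library labelled GFP-positive and a library labelled GFP-negative, 8 in all, from 0.2 to 0.6 ng of RNA; both terms are used below as labels only. GFP in this line reports the activity of that fragment, which need not match wt1a itself, and the protocol text also speaks of mCherry-positive cells, so the identity of the sorted cells rests on the titles.

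Values are TPM, shares of all transcripts corrected for transcript length, which sum to the same total in each library, so the sequencing depth is unknown. wt1a did not follow the labels. It stood at 1.15, 2.59, 71.26 and 39.51 TPM in the GFP-positive libraries of pools 1 to 4, against 2.42, 1.42, 106.82 and 44.28 TPM in the GFP-negative libraries. The libraries separated by pool instead: summed markers of cardiomyocytes lay between 20543 and 29038 TPM in pools 1 and 2, against 1474 to 3942 TPM in pools 3 and 4, whereas summed fibroblast and epicardial markers lay between 82.4 and 139 TPM in pools 1 and 2, against 1674 to 3735 TPM in pools 3 and 4. A few genes dominated pools 1 and 2 more, where the top 50 identifiers took 74.4% to 80.5% of all TPM, against 45.2% to 66.3% in pools 3 and 4. In deposited TPM, the GFP-negative library of pool 3 stood apart from the other libraries of pools 3 and 4 for the complex I genes.

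Averaged over the 8 libraries, the 38 subunits had a median of 26.2 TPM, and the highest was NDUFB7, a subunit of the membrane arm, at 103.7 TPM. The 7 nuclear core subunits averaged between 11.03 and 49.6 TPM, with a median of 20.4 TPM. The 11 NDUFB subunits of the distal membrane arm had a median of 39.4 TPM, and the 12 NDUFA subunits had a median of 17.4 TPM. The 4 accessory subunits with NDUFS or NDUFV symbols had a median of 40.1 TPM. Assembly factors were lower, between 0.743 and 15.8 TPM with a median of 4.50 TPM.

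Together the subunits took 1575, 2032, 665 and 564 TPM in the GFP-positive libraries of pools 1 to 4, against 1528, 1665, 1268 and 585 TPM in the GFP-negative libraries. The sums of the 4 libraries of pools 1 and 2 thus lay above all those of pools 3 and 4, and the GFP-negative library of pool 3 came nearest to them. As a share of all transcripts this was 0.153% to 0.203% in pools 1 and 2, against 0.0564% to 0.127% in pools 3 and 4. Between 34 and 35 of the 38 subunits reached 10 TPM in a library of pools 1 and 2, against 18 to 28 in pools 3 and 4. Subunits were listed at 0 in 3 instances in pools 1 and 2 and in 13 instances in pools 3 and 4, over 6 subunits. All 3 instances in pools 1 and 2 were of ndufa9b, the annotated pseudogene, which is counted among the 38 subunits. It was also at 0 in every library of pools 3 and 4.

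**Figure D1:**
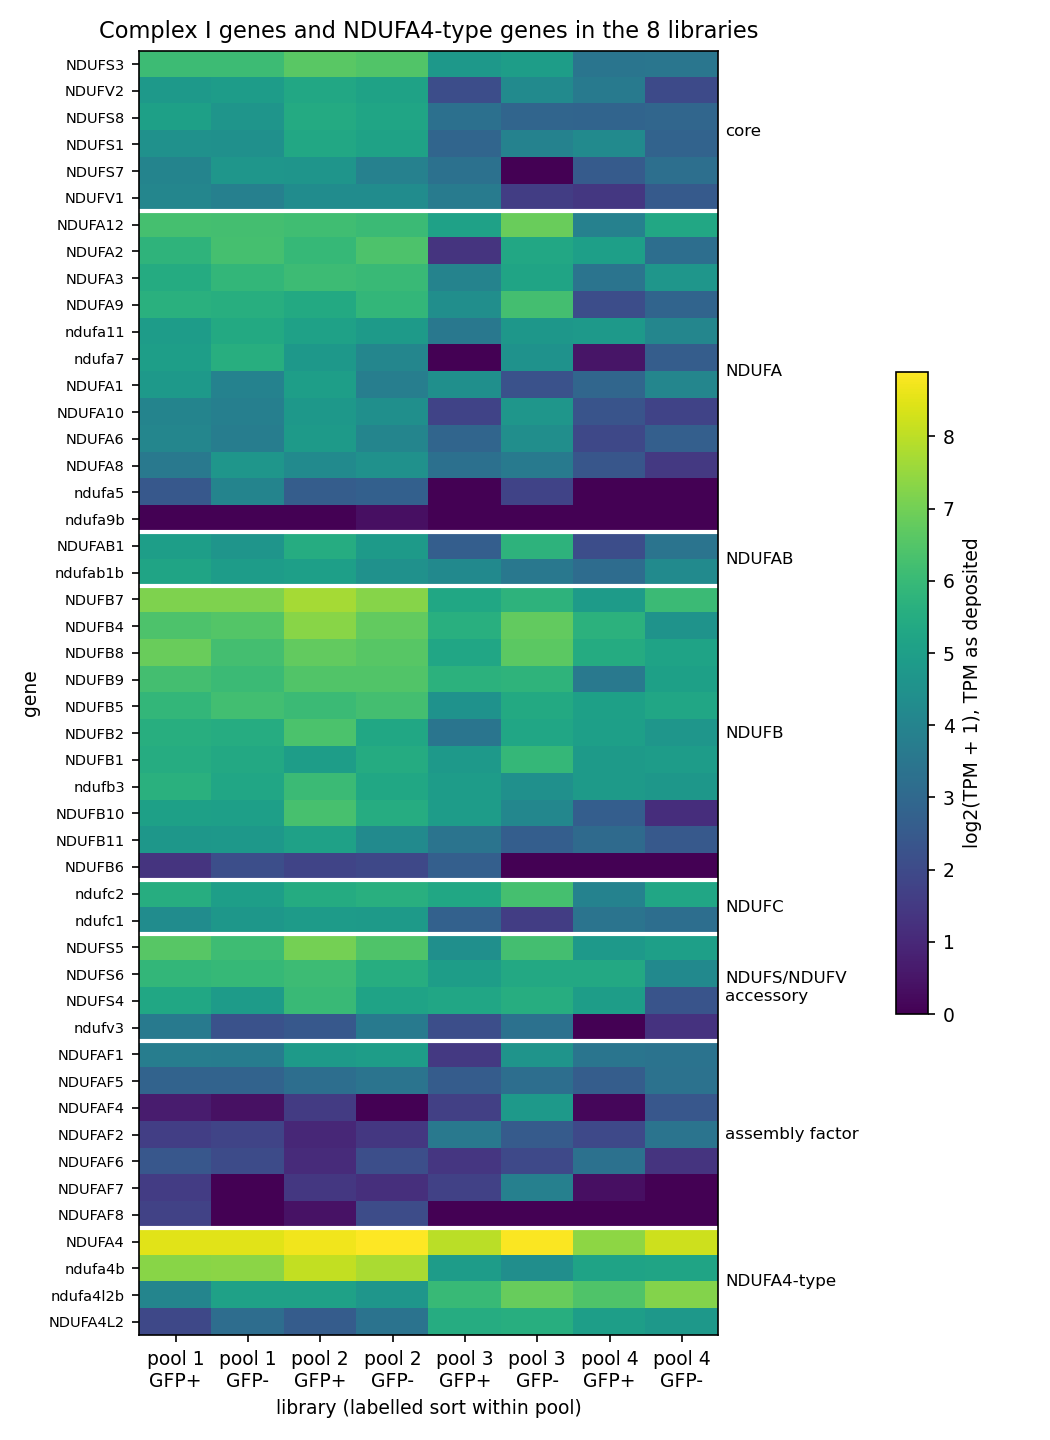
Heat map of log2(TPM + 1), TPM as deposited, for 48 of the 49 genes (down the page, grouped by family and ordered by mean level) in the 8 libraries (across, by pool and labelled sort; GFP+ and GFP- are the labels). Most subunits are brighter in the 4 libraries of pools 1 and 2, and ndufa4l2b and NDUFA4L2 at the foot run the other way. The GFP-negative library of pool 3 is the highest of the other 4 for 24 of 37 tested subunits (share of all genes not counted).

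**Figure D2:**
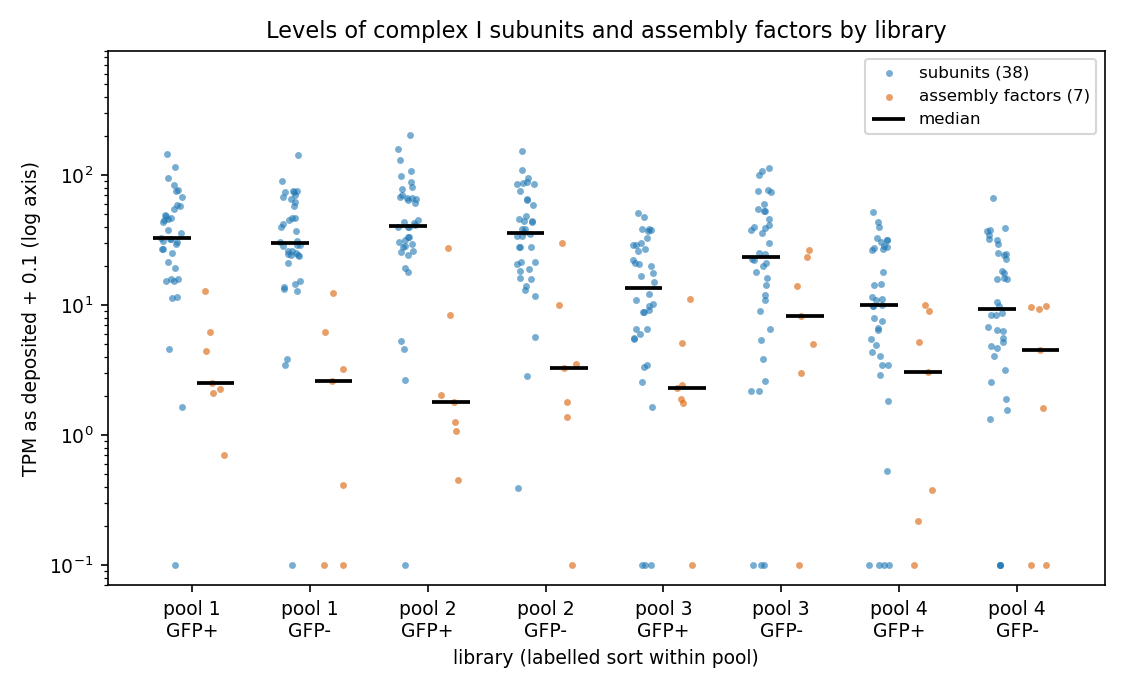
TPM as deposited plus 0.1, on a log axis, for each of the 38 subunits and 7 assembly factors in each library, with black bars for medians. The subunit medians lie between 29.8 and 40.5 TPM in pools 1 and 2, against 9.15 to 23.5 TPM in pools 3 and 4, while those of the assembly factors lie between 1.69 and 3.19 TPM in pools 1 and 2, against 2.22 to 8.18 TPM in pools 3 and 4.

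The first comparison asks how cells labelled GFP-positive differ from those labelled GFP-negative. No complex I gene passed the test. Over the 13877 genes tested limma called 0 (0%), and the adjusted p-values of the complex I genes ran from 0.853 to 0.996. Among the 37 tested subunits 18 had a log2 difference above 0 and 19 below 0, with a median of -0.01 against 0.01 over all genes. At an unadjusted p under 0.05 there were 4 subunits of 37, beside 770 of all genes (5.55%). On the log2 scale, differences here and below are of TPM scaled between libraries plus 1, which understates the change of low genes.

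The sign of the subunits' difference between the labelled sorts varied from pool to pool. Their median log2 difference, GFP-positive minus GFP-negative, was 0.17 in pool 1, 0.46 in pool 2, -0.75 in pool 3 and -0.06 in pool 4, an SD of 0.515 over the 4 pools. All genes had medians between -0.03 and 0.05. In pool 2 the value was above 0 for 32 of the 37 tested subunits, and in pool 3 it was below 0 for 25 of 37. The typical size of the difference, whatever its sign, was 0.33 and 0.47 for the subunits of pools 1 and 2 and 0.96 and 0.86 for those of pools 3 and 4, where all genes had 0.45, 0.45, 0.61 and 0.58.

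**Figure D3:**
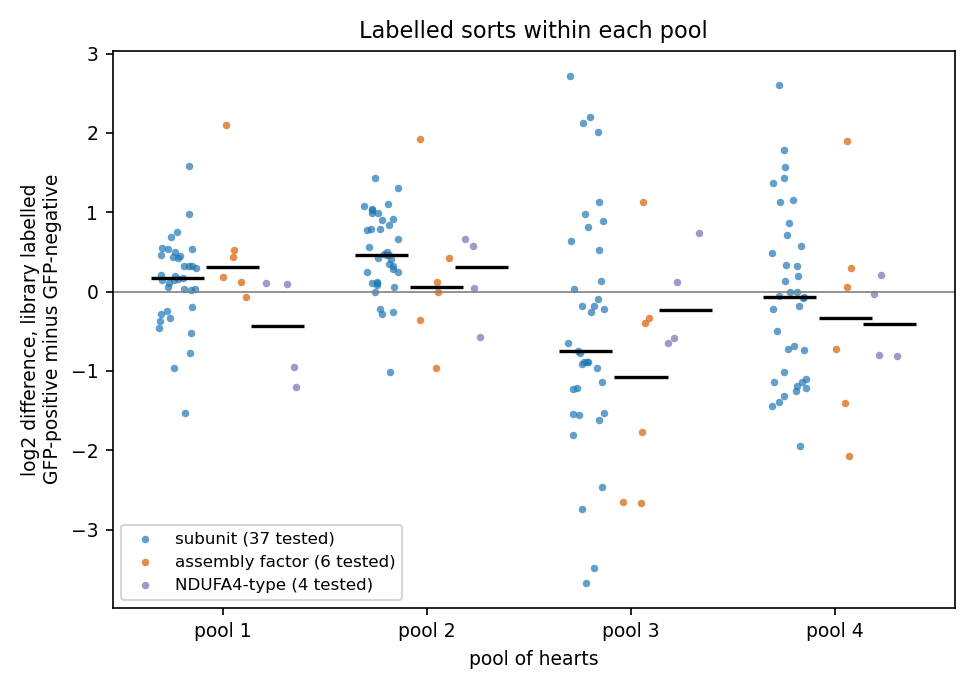
Log2 difference between the libraries of each pool, GFP-positive minus GFP-negative, for the 37 tested subunits, 6 tested assembly factors and 4 NDUFA4-type genes, with black bars for medians. The subunit medians lie on both sides of 0, from -0.75 in pool 3 to 0.46 in pool 2, and the points are more widely spread in pools 3 and 4.

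By family the signs were mixed, and no member was called. The core subunits were above 0 for 6 of 7, with a median of 0.30. The NDUFA subunits were above 0 for 1 of 11, with a median of -0.53, and the NDUFB subunits were above 0 for 7 of 11, with a median of 0.09. The tested assembly factors were above 0 for 2 of 6, with a median of -0.21. In pool 3 alone, the NDUFA subunits had a median of -1.23 and the core subunits 0.03.

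On the scaled values, exactly 3 subunits were higher in the GFP-positive library in 4 of 4 pools, and none was lower in all 4. The share of all genes with either arrangement was not counted. NDUFB10, a membrane-arm subunit on the side of the intermembrane space, stood at 32.13, 77.21, 28.81 and 5.34 TPM in the GFP-positive libraries of pools 1 to 4, against 31.21, 44.28, 16.13 and 1.23 TPM in the GFP-negative libraries. Its log2 difference was 0.90 (SE 0.27), with a limma adjusted p of 0.853. The others were the membrane-arm subunits NDUFB11, at 0.65 (SE 0.27), and ndufb3, at 0.57 (SE 0.21), each with a limma adjusted p of 0.853. The sorts overlapped in level for each of these genes. In deposited TPM both statements change. NDUFB11 was then lower in the GFP-positive library of pool 1, at 24.93 against 26.06 TPM. NDUFB5 was then lower in the GFP-positive library of every pool. It stood at 58.78, 65.94, 21.98 and 32.41 TPM in pools 1 to 4, against 73.27, 75.05, 41.13 and 36.95 TPM in the GFP-negative libraries. NDUFS4, an accessory subunit needed for a stable NADH-oxidising module, had 1.04 (SE 0.41) and was higher in the GFP-positive library in 3 of 4 pools.

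One subunit lay beyond 1.5 interquartile ranges of the others between the labelled sorts. ndufa7 (ENSDARG00000036684), an accessory subunit of the matrix arm, stood at 30.92, 25.89, 0 and 0.43 TPM in the GFP-positive libraries of pools 1 to 4, against 46.67, 15.95, 22.09 and 5.12 TPM in the GFP-negative libraries. It was thus higher in the GFP-positive library in pool 2 alone. The log2 difference of -1.29 (SE 0.66, 95% confidence interval -2.84 to 0.25) was not called (limma adjusted p = 0.853).

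The second comparison sets pools 1 and 2 beside pools 3 and 4. It is made from single contrasts of pools, and the p-values measure only the spread between the 2 libraries of a pool, which come from the same hearts; they do not measure how sets of hearts vary. The contrasts share libraries with each other. The labels give no reason for a difference between pools, and the pools also differ in the marker levels given above. The protocol text also names a second library kit. The titles do not say which libraries it served, so kit and pool cannot be told apart. In such bulk samples fewer cells of a type and less RNA per cell cannot be told apart.

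The subunits were higher in pools 1 and 2 as a group. The F test over the 4 pools called 29 of the 37 tested subunits, beside 12.9% of all genes, at limma adjusted p from 0.000894 to 0.0472, and each of the 29 was highest in pool 1 or 2. Pool 1 minus pool 3 called 27 subunits higher (7.83% of all genes), pool 1 minus pool 4 called 27 (6.69%), pool 2 minus pool 3 called 25 (8.55%) and pool 2 minus pool 4 called 27 (7.63%). None was called lower. The median log2 differences were 2.32, 2.45, 2.24 and 2.58 in that order, while all genes had 0.03, 0.02, 0.04 and 0.02. All 37 tested subunits were above 0 in each of the 4 contrasts, beside 7115, 7045, 7122 and 7080 of the 13877 genes tested. Of the subunits 18 were called higher in all 4 and 34 in at least 1, beside 682 and 1558 of all genes tested. Within each pair of pools no subunit was called: pool 1 minus pool 2 had a median of -0.03 and pool 3 minus pool 4 had 0.04. Over all genes limma called 0 there, with 375 genes and 0 subunits at an unadjusted p under 0.05 between pools 1 and 2, and 1186 genes and 5 subunits between pools 3 and 4.

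These counts depend on the scaling and on single libraries. For single contrasts with a library left out, the share of all genes called was not counted. Subunit medians are therefore given here, and counts, where given, only in the closing section. With TPM as deposited the median of all genes shifted to -1.13, -0.70, -0.93 and -0.51 in the 4 contrasts. That of the subunits shifted to 1.02, 1.63, 1.08 and 1.90. In the same order 7, 11, 11 and 13 subunits were called higher, beside 588, 462, 723 and 588 of the 13877 genes tested. Relative to all genes the subunits were then higher by 2.15, 2.33, 2.01 and 2.41 on the log2 scale. With TPM as deposited the share of subunits called by the F test came much nearer to that of all genes (counts in the closing section). The number of subunits it called also changed with a library left out. Single contrasts then set a lone library against 2. For pool 1 minus pool 3 the subunits' median log2 difference was 2.43 without the GFP-positive library of pool 1. It was 2.46 without the one labelled GFP-negative and 1.92 without the GFP-positive library of pool 3. Pool 1 minus pool 4 had 2.38 without the GFP-positive library of pool 1 and 2.59 without the one labelled GFP-negative. It had 2.29 without the GFP-positive library of pool 4 and 2.46 without the one labelled GFP-negative. Pool 2 minus pool 3 had 1.87 without the GFP-positive library of pool 2 and 2.58 without the one labelled GFP-negative. It had 1.95 without the GFP-positive library of pool 3. Pool 2 minus pool 4 had 2.16 without the GFP-positive library of pool 2 and 2.82 without the one labelled GFP-negative. It had 2.22 without the GFP-positive library of pool 4 and 2.57 without the one labelled GFP-negative. Without the GFP-negative library of pool 3, pool 1 minus pool 3 and pool 2 minus pool 3 had 2.63 and 2.57. The mean difference was above 0 for all 37 subunits in every one of the 18 fits, alternatives included, in which each was tested. The F test called 11 of them in all 18, among them NDUFS3, NDUFS8, NDUFA3, NDUFA8, NDUFA9, NDUFB5, NDUFB7, NDUFB10, NDUFB11 and ndufc1. How many of all genes met either condition was not counted. The fits share libraries, so they are not independent of each other.

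**Figure D4:**
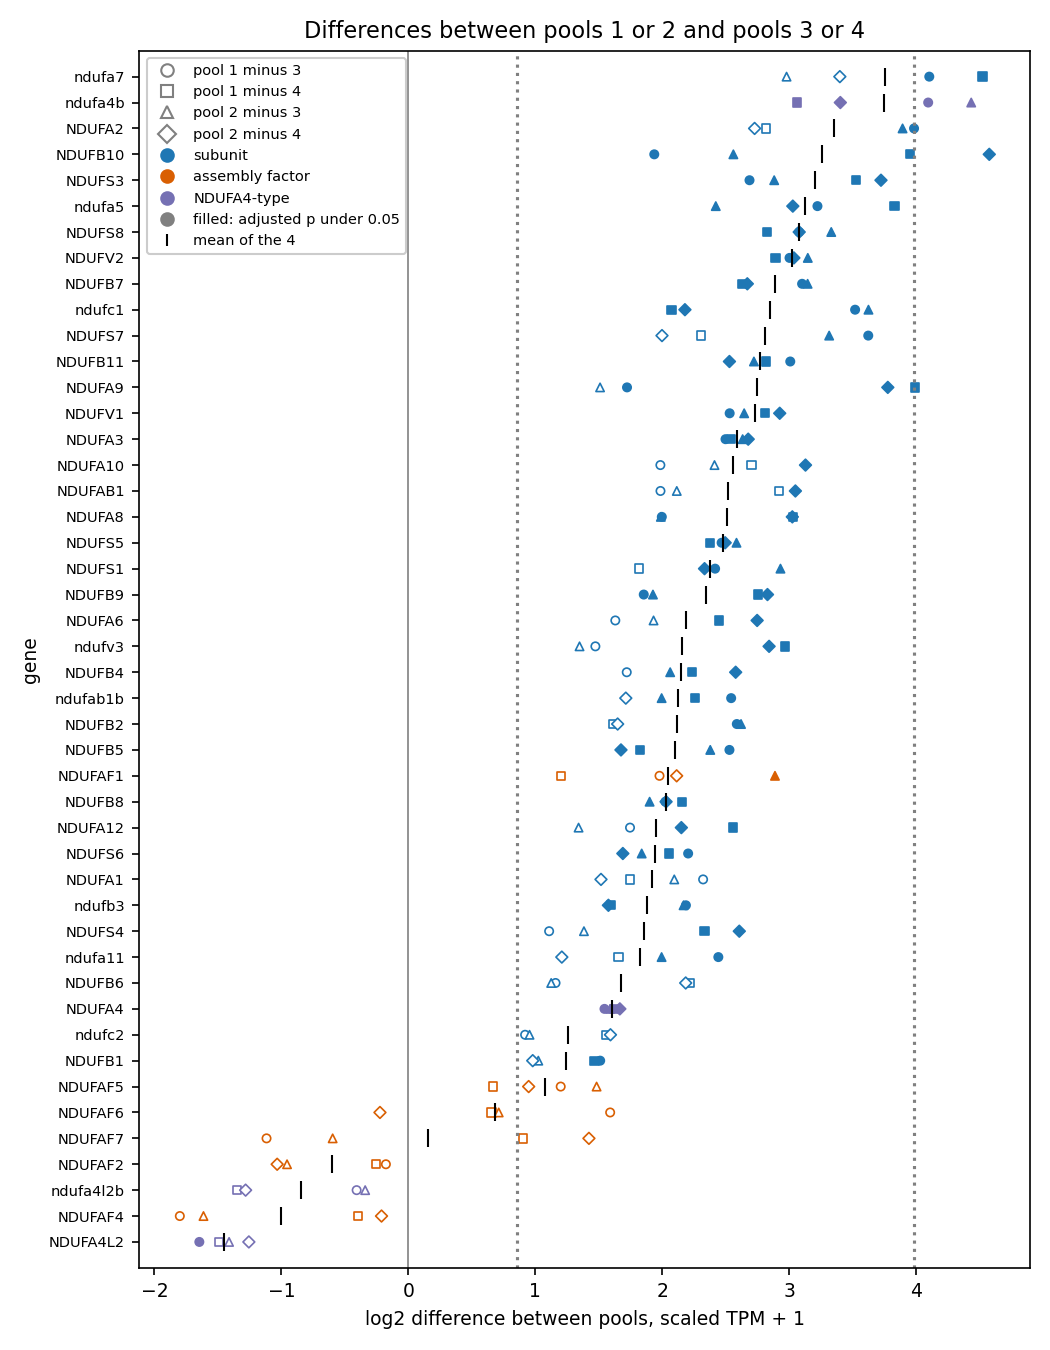
Log2 difference of scaled TPM plus 1 for 46 of the 47 tested genes in the 4 contrasts between pool 1 or 2 and pool 3 or 4, ordered by their mean (black tick); filled symbols passed an adjusted p of 0.05 (limma), and dotted lines mark 1.5 interquartile ranges beyond the quartiles of the subunits, 0.85 and 3.99. The 36 subunits drawn lie right of 0, from a mean of 1.25 for NDUFB1 to 3.75 for ndufa7, whereas NDUFAF2, NDUFAF4, NDUFA4L2 and ndufa4l2b lie left of it in every contrast.

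All 7 nuclear core subunits were called by the F test, beside 12.9% of all genes. Their median difference of 2.81 was the highest of the subunit families. Not all of these calls were stable: NDUFS7 (limma adjusted p = 0.0472) was called in 7 of 18 fits and NDUFV1 in 9. NDUFS3 (ENSDARG00000015385), part of the module that binds ubiquinone, stood at 67.35 and 98.17 TPM in the GFP-positive libraries of pools 1 and 2, with 68.12 and 87.06 TPM in the GFP-negative libraries. In pools 3 and 4 it stood at 25.95 and 9.93 TPM in the GFP-positive libraries and at 29.60 and 10.36 TPM in the GFP-negative libraries. The pools did not overlap, the 2 libraries of a pool lay close together, and the mean log2 difference was 3.21 (F test, limma adjusted p = 0.000894).

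NDUFV2 (ENSDARG00000013044), an iron-sulfur subunit of the NADH-oxidising module, was less even than NDUFS3: it held 26.68, 28.81, 39.45 and 33.90 TPM in pools 1 and 2, against 3.25 and 17.91 TPM in pool 3 and 11.39 and 3.04 TPM in pool 4. The groups did not overlap, and the mean log2 difference was 3.02 (limma adjusted p = 0.0267). The F test called NDUFV2 in 10 of 18 fits: the call was lost with TPM as deposited (2.04), a pseudocount of 0.1 (3.29), no filter, a prior variance without a trend, or any 1 library of pools 1 and 2 left out (2.90 to 3.16). NDUFS8, a carrier of iron-sulfur clusters, lay between 23.90 and 42.71 TPM in pools 1 and 2, against 6.28 to 8.74 TPM in pools 3 and 4, a mean log2 difference of 3.08 (limma adjusted p = 0.00141). NDUFS7, which sits beside the ubiquinone site, had 13.96 to 24.24 TPM in pools 1 and 2 and was listed at 0 in the GFP-negative library of pool 3, beside 4.86 to 9.04 TPM in the other 3 libraries.

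Of the 11 NDUFB subunits, 10 were called by the F test (12.9% of all genes), with a family median of 2.12. Among these, NDUFB1 was called in 7 of 18 fits and NDUFB2 in 9. NDUFB7 (ENSDARG00000033789) held 144.46 and 203.99 TPM in the GFP-positive libraries of pools 1 and 2 and 142.69 and 152.37 TPM in the GFP-negative libraries. In pools 3 and 4 it held 37.99 and 28.39 TPM in the GFP-positive libraries and 53.02 and 66.43 TPM in the GFP-negative libraries. Every library of pools 1 and 2 was at least as high as 142.69 TPM and none of pools 3 and 4 passed 66.43 TPM, and the mean log2 difference was 2.89 (limma adjusted p = 0.0034).

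NDUFB4 and NDUFB8, both of the membrane arm, showed the library that stands apart. NDUFB4 (ENSDARG00000019332) was 83.23, 89.24, 157.22 and 108.08 TPM in pools 1 and 2. In pools 3 and 4 it was 47.75 and 51.50 TPM in the GFP-positive libraries but 106.50 and 22.45 TPM in the GFP-negative libraries. NDUFB8 (ENSDARG00000010113) was 113.96, 73.86, 106.94 and 94.01 TPM in pools 1 and 2, and 98.93 TPM in the GFP-negative library of pool 3 beside 34.32 to 43.34 TPM in the other 3 libraries. Both genes therefore overlapped between the pools in deposited TPM through that library alone. On the scaled values their mean log2 differences were 2.15 (limma adjusted p = 0.0193) and 2.03 (limma adjusted p = 0.0203). The F test called them in 11 and 10 of 18 fits, and with TPM as deposited the differences were 1.09 and 0.97, without a call. NDUFB6 was the low member of the family, between 1.54 and 3.36 TPM in pools 1 and 2 and at 5.43 TPM in the GFP-positive library of pool 3, while the other 3 libraries listed it at 0.

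Among the NDUFA subunits 8 of the 11 tested were called by the F test (12.9% of all genes), with a family median of 2.56. Of the called ones, NDUFA6 and NDUFA12 were each called in 9 of 18 fits. The mean log2 difference of ndufa7 was 3.75 (limma adjusted p = 0.0339), and its median was 28.4 TPM over the libraries of pools 1 and 2 and 2.78 TPM over those of pools 3 and 4, with the spread between labelled sorts described above. The F test called ndufa7 in 10 of 18 fits, over which its mean difference ran from 2.52 to 5.03. The call was lost with TPM as deposited (2.94), a pseudocount of 0.1, no filter, a prior variance without a trend, and without either library of pool 1 or of pool 4 (3.51 to 4.08). NDUFA12, a late-added subunit of the NADH-oxidising module, lay between 65.49 and 76.58 TPM in pools 1 and 2, against 14.12 to 39.15 TPM in 3 libraries of pools 3 and 4, but reached 113.74 TPM, its highest value, in the GFP-negative library of pool 3. NDUFA9, at the joint of the arms, showed the same arrangement, with 41.16 to 58.45 TPM in pools 1 and 2, against 75.10 TPM in that library beside 3.34 to 19.94 TPM in the other 3. ndufa5, of the ubiquinone-binding module, was listed at 0 in 3 of the 4 libraries of pools 3 and 4, at 2.49 TPM in the fourth and at 4.45 to 15.23 TPM in pools 1 and 2, and its mean difference ran from 1.51 to 5.66 over 17 fits, with a call in 15.

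Of the 2 NDUFAB genes, which encode the mitochondrial acyl carrier protein, ndufab1b was called, and NDUFAB1 was not, at 24.12 to 44.87 TPM in pools 1 and 2, 52.52 TPM in the GFP-negative library of pool 3 and 3.34 to 9.69 TPM in the other 3. Of the 2 NDUFC genes of the membrane arm, ndufc1 was called and ndufc2 was not. Of the 4 accessory subunits with NDUFS or NDUFV symbols, NDUFS5 and NDUFS6 were called, beside 12.9% of all genes. The 8 subunits without a call were NDUFA1, NDUFA2, NDUFA10, NDUFAB1, NDUFB6, ndufc2, NDUFS4 and ndufv3, at limma adjusted p from 0.0588 to 0.188, and their differences were above 0 like those of the others. ndufc2, NDUFB6 and NDUFA1 passed in none of the 4 contrasts. ndufc2 held 45.37, 30.60, 43.09 and 48.10 TPM in pools 1 and 2 and 38.20, 75.87, 14.46 and 37.70 TPM in pools 3 and 4, a mean log2 difference of 1.26 after scaling (limma adjusted p = 0.127).

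In deposited TPM, with no scaling, all 4 libraries of pools 1 and 2 lay above all 4 of pools 3 and 4 for 21 of the 37 tested subunits, beside 6.26% of all genes. Without the GFP-negative library of pool 3 this held for 33 subunits, beside 8.21% of all genes, a comparison chosen after its values were seen. In deposited TPM that library was the highest of pools 3 and 4 for 24 of 37 subunits. It reached the lowest library of pools 1 and 2 for 14 of 37. The GFP-positive library of pool 3 did so for 4, the GFP-positive library of pool 4 for 1 and the GFP-negative library of pool 4 for 2. The share of all genes was not counted for these numbers. The scaling factor of the GFP-negative library of pool 3, 1.89, was the largest of all libraries. After scaling its subunits summed to 672 TPM. The GFP-positive library of pool 3 then held 410 TPM, and the libraries of pool 4 held 467 TPM (GFP-positive) and 484 TPM (GFP-negative). On the scaled values 36 of the 37 subunits did not overlap, beside 14.5% of all genes, and the exception was NDUFB6. No subunit had all libraries of pools 3 and 4 higher, which 33.4% of all genes had in deposited TPM and 12.1% on the scaled values.

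The order of the subunits by level was more alike among the libraries of pools 1 and 2 than among those of pools 3 and 4. Over the 37 tested subunits, the Spearman correlation of TPM between the 2 libraries of a pool lay between 0.606 and 0.910. It lay between 0.808 and 0.926 for libraries of pool 1 against those of pool 2, between 0.605 and 0.690 for pool 3 against pool 4, and between 0.578 and 0.827 across the pairs. These describe genes within libraries, which share transcript lengths and the counting of reads.

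None of the 6 tested assembly factors was called by the F test, at limma adjusted p from 0.0902 to 0.633. The share of all genes called was 12.9%, so no call among 6 genes does not set them apart from all genes. The median of their mean differences was 0.42, where that of the subunits was 2.37. The assembly factors are low, and adding 1 to the scaled TPM understates the change of low genes. Their median differences in the 4 contrasts were 0.51, 0.66, 0.06 and 0.37, and with TPM as deposited they were -0.70, -0.13, -0.78 and -0.09. Summed, they held 30.35, 41.80, 24.03 and 27.28 TPM in the GFP-positive libraries of pools 1 to 4, against 24.21, 49.23, 79.35 and 34.43 TPM in the GFP-negative libraries. The highest sum was that of the GFP-negative library of pool 3, and the pools overlapped.

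NDUFAF1 (ENSDARG00000025549), which helps to build the membrane arm, came closest to the subunits. It stood at 12.77, 12.19, 27.44 and 29.79 TPM in pools 1 and 2, and at 1.79, 23.11, 9.90 and 9.50 TPM in pools 3 and 4, where 23.11 TPM was the GFP-negative library of pool 3. It was called in pool 2 minus pool 3, at 2.89 (SE 0.70, limma adjusted p = 0.0324), but not by the F test (limma adjusted p = 0.0902). With one or the other library of pool 3 left out, the F test called it. NDUFAF5 (ENSDARG00000061629), which hydroxylates the core subunit NDUFS7, was the most even, at 6.11, 6.11, 8.27 and 9.84 TPM in pools 1 and 2 and 4.97, 8.18, 5.13 and 9.27 TPM in pools 3 and 4. Its groups overlapped in deposited TPM but not on the scaled values, where its mean log2 difference was 1.07 (limma adjusted p = 0.145). On the scaled values 2 of the 6 tested assembly factors, NDUFAF1 and NDUFAF5, had pools 1 and 2 above without overlap. The share of all genes with this arrangement was 14.5%.

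The other 4 tested assembly factors lay below the limit of 0.85, set 1.5 interquartile ranges below the lower quartile of the subunits. NDUFAF5, at 1.07, lay above this limit but below the lowest tested subunit, at 1.25. NDUFAF6, needed for early assembly of the matrix arm, stood between 1.15 and 4.33 TPM in pools 1 and 2, against 1.51 to 8.91 TPM in pools 3 and 4. NDUFAF7, an arginine methyltransferase of the matrix, stood between 0 and 1.99 TPM in pools 1 and 2, and was at 13.79 TPM in the GFP-negative library of pool 3 beside 0 to 2.33 TPM in the other 3. The mean log2 differences, 0.68 and 0.15, turned to -0.08 and -0.45 with TPM as deposited.

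NDUFAF2 and NDUFAF4 had the opposite sign to the subunits in all 4 contrasts, without a call. NDUFAF2, an assembly paralog of the subunit NDUFA12, stood at 2.15, 2.50, 0.97 and 1.71 TPM in pools 1 and 2, against 11.06, 4.87, 2.94 and 9.76 TPM in pools 3 and 4. These did not overlap in deposited TPM, an arrangement with pools 3 and 4 above that 1 of the 6 tested assembly factors and 33.4% of all genes had. After scaling the mean log2 difference was -0.61 (limma adjusted p = 0.633). NDUFAF4, which takes part in early assembly, stood at 0.60, 0.31, 1.93 and 0 TPM in pools 1 and 2 and at 2.22, 26.48, 0.12 and 4.39 TPM in pools 3 and 4. Its mean log2 difference was -1.01 (limma adjusted p = 0.596), and a single library, labelled GFP-negative of pool 3, held most of its TPM; without that library the mean log2 difference was -0.30.

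The 4 NDUFA4-type genes went in different directions. NDUFA4 (ENSDARG00000099499), a small subunit of cytochrome c oxidase, was the most abundant of all 49 genes. It stood at 357.14 and 410.82 TPM in the GFP-positive libraries of pools 1 and 2, with 360.70 and 473.87 TPM in the GFP-negative libraries. In pools 3 and 4 it stood at 251.62 and 167.63 TPM in the GFP-positive libraries and at 460.25 and 296.05 TPM in the GFP-negative libraries. The libraries overlapped in deposited TPM, again through the GFP-negative library of pool 3, and after scaling the mean log2 difference was 1.61 (limma adjusted p = 0.0112), with a call in all 4 contrasts. The F test called NDUFA4 in 16 of 18 fits, over which its mean difference ran from 0.53 to 1.76.

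Its paralog ndufa4b (ENSDARG00000056108) had a larger difference, though that between the paralogs was not tested. It held 157.98, 161.19, 269.49 and 214.98 TPM in pools 1 and 2, against 29.50, 19.88, 35.04 and 35.98 TPM in pools 3 and 4. The groups were far apart and the GFP-negative library of pool 3 was the lowest of all 8 here, not the highest of its pools. The mean log2 difference was 3.75 (limma adjusted p = 0.000704), a call that held in all 18 fits, and the ratio of the medians in deposited TPM was 5.83 for ndufa4b and 1.41 for NDUFA4. NDUFA4 made up 60.4% to 69.3% of the summed TPM of these paralogs in pools 1 and 2, against 82.7% to 95.9% in pools 3 and 4. Reads of close paralogs can be divided differently by the counting, so this split is uncertain.

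NDUFA4L2 and ndufa4l2b, relatives whose mammalian counterpart is induced in low oxygen, were higher in pools 3 and 4 in deposited TPM. NDUFA4L2 (ENSDARG00000103114) stood at 2.84, 7.96, 5.05 and 9.34 TPM in pools 1 and 2, against 44.25, 47.02, 30.37 and 26.06 TPM in pools 3 and 4. ndufa4l2b (ENSDARG00000087907) stood at 15.40, 33.17, 32.92 and 24.29 TPM in pools 1 and 2, against 63.23, 111.36, 85.00 and 148.62 TPM in pools 3 and 4. Neither gene overlapped between the pools in deposited TPM, with pools 3 and 4 above as for 33.4% of all genes. On the scaled values NDUFA4L2 again did not overlap, an arrangement that 12.1% of all genes had. The scaled values of ndufa4l2b did overlap, at 25.5 to 50.4 TPM in pools 1 and 2, against 39.0 to 123 TPM in pools 3 and 4. After scaling the mean log2 differences were -1.45 (F test, limma adjusted p = 0.070) and -0.84 (limma adjusted p = 0.16), and a single contrast was called, pool 1 minus pool 3 for NDUFA4L2 at -1.65 (SE 0.43, limma adjusted p = 0.0467). With TPM as deposited, where the median of all genes lies below 0 in these contrasts, the F test called both, at mean differences of -2.44 and -1.90.

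**Figure D5:**
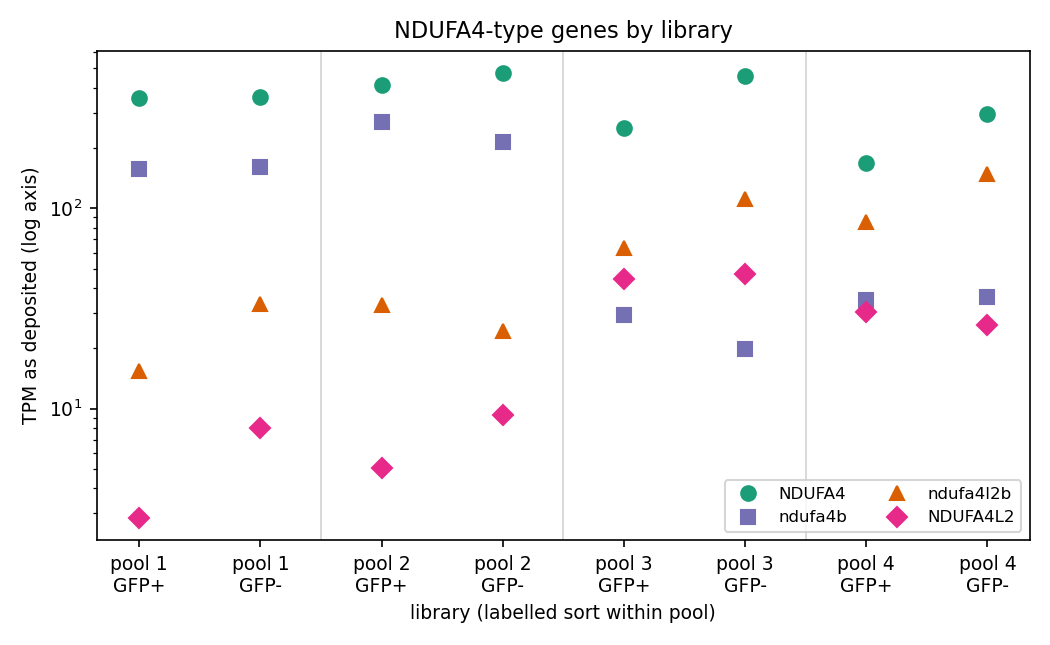
TPM as deposited, on a log axis, of the 4 NDUFA4-type genes in the 8 libraries. NDUFA4 is the highest in each library, ndufa4b lies between 158 and 269 TPM in pools 1 and 2, against 19.9 to 36.0 TPM in pools 3 and 4, and NDUFA4L2 and ndufa4l2b are higher in pools 3 and 4.

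Other genes of the pathway were described from lists of names. The 7 complex I subunits encoded in mitochondrial DNA were all called by the F test, beside 12.9% of all genes. They were called higher in all 4 contrasts, beside 682 of the 13877 genes tested. Their median log2 differences were 3.28, 3.40, 3.04 and 3.03, and none was called between the labelled sorts (median 0.16). Their summed level was 20.3 to 28.4 times that of the nuclear subunits in pools 1 and 2, against 11.4 to 13.2 times in pools 3 and 4, so the ratio did not overlap between the pools. Of 10 tested assembly factors without an nduf symbol, 2 were called, beside 12.9% of all genes: TMEM126A at 2.59 (limma adjusted p = 0.00149) and AIFM1, which acts in the import of subunits, at 2.51 (limma adjusted p = 0.00255). The list's median was 0.92.

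Complex II, which also feeds electrons to ubiquinone, had calls for 5 of 8 tested genes, beside 12.9% of all genes, namely SDHA, SDHB, SDHC, SDHD and the assembly factor SDHAF3, all highest in pool 1 or 2, with a list median of 1.88. Among 18 tested regulators of mitochondrial biogenesis 4 were called, beside 12.9% of all genes: PPARGC1A, PPARA, GABPB1 and tfb2m, each highest in pool 1 or 2. PPARGC1A, a coactivator of mitochondrial genes, stood at 6.91, 4.69, 10.98 and 12.45 TPM in pools 1 and 2, against 0.43, 1.96, 3.17 and 0.12 TPM in pools 3 and 4 (limma adjusted p = 0.0229). NRF1 and TFAM, a transcription factor and the packaging protein of mitochondrial DNA, were not called, at limma adjusted p of 0.343 and 0.367.

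Among the cell types that the sorts could hold, cardiomyocyte, endothelial, erythrocyte, and fibroblast and epicardial markers moved with the pools as well. Summed macrophage markers and the neutrophil marker lyz overlapped between the pools. All 7 tested cardiomyocyte markers were called higher in pools 1 and 2, with a median of 4.18 where the subunits had 2.37, and the summed subunits equalled 6.26% to 7.67% of the summed cardiomyocyte markers in pools 1 and 2, against 19.2% to 45.1% in pools 3 and 4. Of the 9 cardiomyocyte identifiers, 0 to 1 were listed at 0 in a library of pools 1 and 2 and 1 to 2 in a library of pools 3 and 4, each time a second identifier of TNNT2 or TNNI1. Endothelial markers summed to 121 to 221 TPM in pools 1 and 2, against 7.99 to 24.7 TPM in pools 3 and 4, and all 4 tested were called. Erythrocyte markers summed to 644 to 1503 TPM in pools 1 and 2, against 5.95 to 31.5 TPM in pools 3 and 4, and all 3 tested were called. All 7 fibroblast and epicardial markers were called lower in pools 1 and 2 (median -2.95). Macrophage markers summed to 10.2 to 12.98 TPM in pools 1 and 2, against 2.18 to 18.4 TPM in pools 3 and 4, where the highest sum came mostly from an untested MFAP4 identifier at 16.77 TPM in the GFP-positive library of pool 3. Of 3 tested macrophage identifiers 1 was called, another MFAP4 (ENSDARG00000090783), higher in pools 1 and 2 in all 4 contrasts with a mean log2 difference of 2.74 (limma adjusted p = 0.0103), while csf1ra and marco were not called. The gene lyz, the 1 neutrophil marker matched, stood at 0.40 to 8.71 TPM in pools 1 and 2, against 0 to 4.96 TPM in pools 3 and 4. Beside these counts of called markers, the F test called 12.9% of all genes. The part of these cell types in the subunit levels was not tested.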

How the data were processed

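RNA of sorted ventricular cells was sequenced in 8 libraries, 4 of each labelled sort, as single reads of 60 bases. The deposited table holds TPM made by the authors; each column sums to the same total, and TPM keeps no depth, so depth and the precision it gives are unknown and no interval based on reads is given. CASAVA 1.8.2, cutadapt, RSEM 1.2.25 and the genome build Zv9 are named, per the submitters' processing notes; which aligner and annotation were used is not given in the sources used here. Symbols were attached from a table of gene names for 25925 of 31388 identifiers, many in the human style, and RefSeq biotypes were used for names alone. A gene known under another symbol would be missed by the nduf rule. Sequences, promoters and coordinates were not analysed here, nor were the motifs planned for the promoters.

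The members, the gene lists and the tests were chosen with earlier results of these data known. The tested genes, 13877 in number, reached 1 TPM or more in 4 or more libraries. Scaling between libraries used the mean of their log ratios without weights, after trimming 30% by ratio and 5% by abundance from each end. limma 3.58.1 (R 4.3.3) was fitted to log2(scaled TPM + 1) with pool and labelled sort as terms and an intensity trend in the prior variance, and p-values were adjusted by Benjamini-Hochberg over all genes tested, with a threshold of 0.05. The series' design text states pairs and the pool label gives them, so the replicate block is part of the model. Deviations of same-numbered libraries correlated at 0.492, 0.537, 0.446 and 0.403 for pools 1 to 4. No values for differently numbered libraries are given beside these, so they do not test the pairing. Pool contrasts come from the same model.

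One member is counted but not reported here by name. Members shown in full were the 3 core and 3 accessory subunits of highest mean, the 2 highest and 2 lowest tested assembly factors, and those that depart: a mean over the 4 contrasts, or a difference between sorts, beyond the subunits' quartiles by over 1.5 interquartile ranges, or the opposite sign in all 4 contrasts. Other members and called list members were named by their calls or families. Alternatives were other scalings, TPM as deposited, pseudocounts of 0.1 and 5, no filter and a filter at 5 TPM, a prior variance without a trend, no replicate block, no term for the labelled sort, and leaving out each pool or library, with the list of tested genes kept. The tests were tested on simulated data. Python 3.11.15, pandas 2.3.3 and matplotlib 3.10.9 served for tables and figures.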

Additional observations from a re-analysis of the deposited data

Results flagged for a closer look

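There were 98 groups of 4 libraries of 1 labelled sort, one for each gene and sort. In these, 6 values stood so far from the other 3 libraries that the gap took up most of the group's range. About 5% of groups would meet this criterion by chance if their 4 values came from 1 normal distribution. The groups here mix pools that differ in level, and some hold zeros, so this rate need not apply. A pair of assembly factors was singled out by the GFP-negative library of pool 3: NDUFAF4 at 26.48 TPM, beside 0 to 4.39 TPM in the other GFP-negative libraries, and NDUFAF7 at 13.79 TPM, beside 0 to 1.28 TPM. NDUFAF8 was listed at 2.40 TPM in the GFP-positive library of pool 1, beside 0 to 0.35 TPM in the other 3, and at 3.19 TPM in the GFP-negative library of pool 2, beside 0 in the other 3. The subunit NDUFB1 stood at 44.80 TPM in the GFP-positive library of pool 1, beside 26.82 to 29.58 TPM in the other 3. ndufa9b was listed at 0.29 TPM in the GFP-negative library of pool 2 and at 0 elsewhere.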

How the results depend on the processing

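Between the labelled sorts 0 complex I genes were called under every alternative, and 0 genes in all except 2 without pool 2 and 1 without pool 3 (0 to 2 over the left-out pools). With no replicate block 0 genes were called and the subunit median was again -0.01. The pool F test called 1787 genes, and 4007 with TPM as deposited, 896 with no filter and 926 to 1429 with 1 library left out. Of the subunits it called 29, and 13 with TPM as deposited, 12 with no filter, 16 with a prior variance without a trend and 15 to 30 with 1 library left out. Pool 1 minus pool 3 called 27 subunits, and 7, 12 and 16 under these 3 alternatives in the same order and 5 to 28 with 1 library left out. Pool 1 minus pool 4 called 27, and 11, 14, 16 and 5 to 34. Pool 2 minus pool 3 called 25, and 11, 11, 14 and 5 to 26. Pool 2 minus pool 4 called 27, and 13, 13 and 17, and its median ran from 2.16 to 2.82 with 1 library left out. A left-out library leaves 1 library in its pool, which is assumed to vary like the others. For single contrasts, the number or share of all genes called is given only for the main setting and for TPM as deposited. The other counts of subunits in single contrasts therefore cannot show whether the subunits or calls in general changed.

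The subunits without overlap between pools numbered 21 in deposited TPM, 36 in scaled values and 33 without the GFP-negative library of pool 3, both of these alternatives chosen after the data were seen. NDUFAF6 turned from 0.68 to -0.080 with TPM as deposited. NDUFAF7 turned from 0.15 to -0.45 with TPM as deposited and to -0.0074 with a pseudocount of 5, and ran from -0.52 to 0.80 with 1 library left out. The cause of these changes was not tested. The 15 members shown in full had 251 values under alternatives, of which 209 kept direction and side of the threshold, 31 lost the call, 6 gained one and 5 changed sign. TPM keeps no depth, so what depth limits is unknown.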
